A study of Mus musculus with 8 samples.

Results

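The mitochondrial ribosomal protein genes were examined in the liver of fasted WT and S155A mice. Members were all rows of the gene table whose symbol is Mrpl or Mrps followed by a number and an optional letter, which gave 77 of 45706 genes. All 77 passed the filter on low counts that kept 14629 genes. S155A mice, called SA/SA in the study, carry a CRISPR-Cas9 edit that replaces a serine of PLIN5, a perilipin that coats lipid droplets, with an alanine that cannot be phosphorylated. By the study's methods, the edit was checked by sequencing a founder, and its offspring were genotyped. There were 4 WT and 4 S155A mice, all female, C57BL/6J and 4 months old, fed chow and fasted overnight, with 1 stranded mRNA library per mouse. The labels name liver as tissue and hepatocytes as cell type, and the values were read as whole liver. The comparison asks which liver transcripts differ when PLIN5 cannot be phosphorylated at this serine.

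The mitochondrial ribosome, or mitoribosome, translates the few messages encoded in mitochondrial DNA, which specify core subunits of the respiratory chain and ATP synthase. Its rRNAs come from mitochondrial DNA, whereas all of its proteins are encoded in the nucleus, made in the cytosol and imported. It descends from a bacterial ribosome, so that many of its proteins have a counterpart in bacteria while others are found only in mitochondria.

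By structural role, 50 members encode proteins of the large subunit, which forms peptide bonds, and 26 encode proteins of the small subunit, which reads the mRNA. Mrps18a and Mrps30 are named after the small subunit but their proteins sit in the large one, and they were counted there. Mrps36 was kept apart, because its protein is now assigned to the oxoglutarate dehydrogenase complex. Of the 76 remaining members, 48 have a counterpart in bacteria and 28 are found only in mitochondria.

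Total counts per library were between 39709785 and 54540864, and the 77 members took between 0.243% and 0.285% of them. The counts of a member in a library ranged from 223 to 10873. All 8 hepatocyte markers were detected in every mouse. The summed level of 8 lymphocyte markers was 2061 CPM (counts scaled to TMM-normalized library size) in S155A replicate 3 and 18.3 to 45.0 CPM in the other 7 mice. All 8 had a log2 fold change above 0 (median 1.07), and 4 had an unadjusted edgeR p under 0.05. The summed level of 6 pancreatic acinar markers was 30.7 CPM in WT replicate 2 and 4.14 to 6.43 CPM in the others. All 5 red blood cell markers (summed level 411 to 2647 CPM in WT and 951 to 1154 CPM in S155A mice) and all 5 stellate cell markers (224 to 304 CPM and 99.1 to 240 CPM) had a log2 fold change below 0, and all 5 Kupffer cell markers (146 to 301 CPM and 165 to 354 CPM) had one above 0. None of these passed an adjusted p under 0.05, and their part in the results below was not tested. The log2 difference of Kupffer and lymphocyte markers (S155A minus WT) depended on which mice were compared. Among replicates 1 and 4, it was above 0 for 1 of 5 Kupffer (median -0.49) and 3 of 8 lymphocyte markers (-0.026). Among replicates 2 and 3, it was above 0 for all of both (medians 0.95 and 1.38). The medians of red blood cell and stellate cell markers were below 0 in both sets of mice. In bulk liver, fewer cells of a type and less RNA per cell cannot be told apart. Plin5 itself had 206 ± 32.3 CPM (SD, n = 4) in WT and 328 ± 118 CPM in S155A mice, which does not check the labels because the edit changes a codon and does not remove the transcript.

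Expression per length differed widely within the group. Levels were divided by the median length of the annotated coding transcripts, and the mean over 8 mice ran from 1.91 CPM per kb for Mrps25 to 144 CPM per kb for Mrpl12, a span of 75.4-fold. Mrpl12, whose protein is part of the flexible stalk of the large subunit, alone took 7.06% of the summed CPM of the members. It was followed per length by Mrpl17 with 122 CPM per kb, Mrpl52 with 110, Mrpl20 with 89.3 and Mrpl30 with 87.7, all of the large subunit. The lowest after Mrps25 were Mrpl19 with 2.78 CPM per kb and Mrpl32 with 4.01, both of the large subunit. Annotated length weighed on this order: Mrps25 (6073 bases) and Mrpl19 (5000 bases) had 11.6 and 13.9 CPM before division. Before division by length, the median was 29.9 CPM for the large and 28.2 CPM for the small subunit. Per length, the median of all members was 29.8 CPM per kb, with 36.5 for the large and 20.6 for the small subunit. For comparison, it was 4.57 CPM per kb over all genes tested, 129 over 37 nuclear subunits of respiratory complex I and 363 over 78 ribosomal proteins of the cytosol. The order of the members was nearly the same in WT and S155A mice, with a Spearman correlation of 0.9959 between their mean levels. It was taken across the 77 genes, which share libraries and are not independent replicates. With a span of 75.4-fold and the same lengths in both groups, a value near this could hardly fail to arise, and it says little about genotype.

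**Figure D1:**
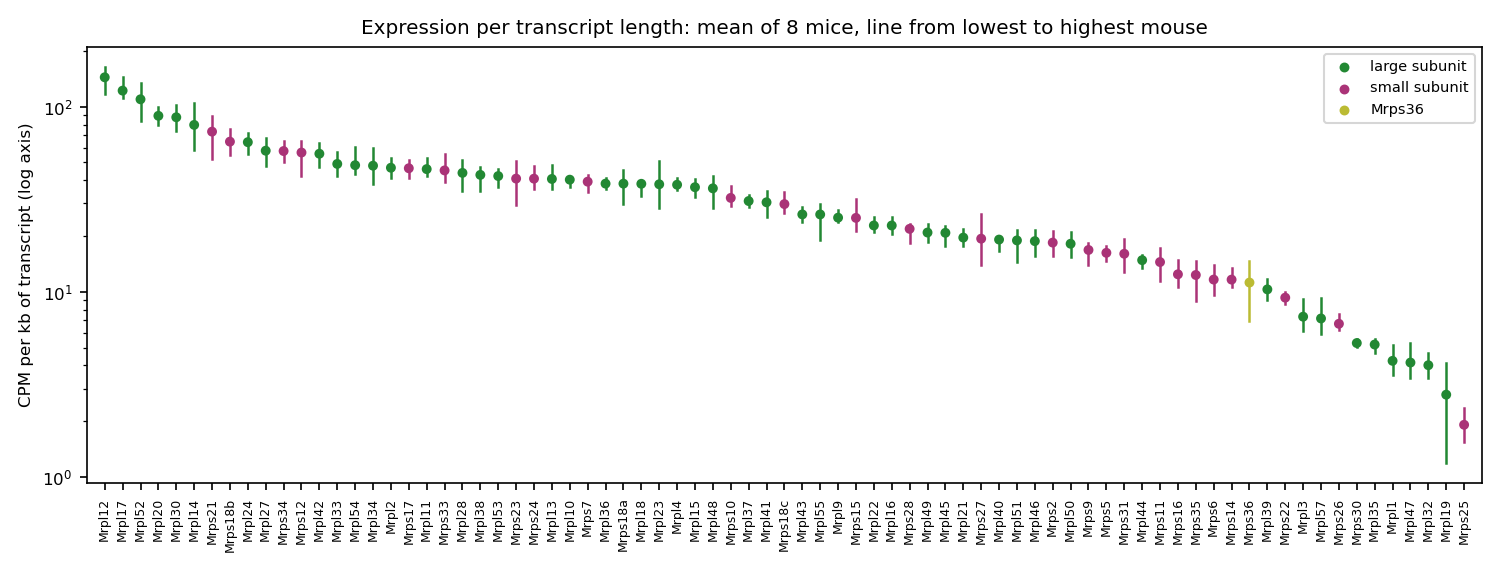
Expression of the 77 members per kb of transcript (CPM per kb, log axis), ordered by level. Points are means of 8 mice, lines run from the lowest to the highest mouse, and colours mark the subunit. Mrpl12 stands highest at 144 CPM per kb and Mrps25 lowest at 1.91, and Mrpl19 has the longest line at the low end.

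Promoters were compared because the members' levels moved together across mice. Windows from 250 bases before to 50 bases after the RefSeq start (GRCm38.p6) were given for 68 members, 74 windows in all. Mrpl4, Mrpl13, Mrpl15, Mrpl19, Mrpl38, Mrpl54, Mrps28, Mrps34 and Mrps35 had no entry. The windows were searched on both strands for letters of factors known to act on nuclear genes of mitochondria: CCGGAAG for ETS factors such as GABPA, GCGCATGCG for NRF1 and AAGATGGCG for YY1. No match of one of these overlapped a match of another in a member's window, while GCGCATGCG can overlap its own reverse complement and did so in Mrpl9, Mrpl32 and Mrpl39. Upstream sequence is shown for 5 members to let these letters be seen in place, in capitals and in the direction of transcription. Each stretch ends at the base before the RefSeq start. Mrpl43 (chr19:45006443-45006542, reverse strand) has the ETS letters at 2 places, Mrpl52 (chr14:54426809-54426908, forward strand) has them on the opposite strand, and Mrps22 (chr9:98601680-98601779, reverse strand) has them close to the start. Mrpl17 (chr7:105811088-105811117, reverse strand) has the NRF1 letters. GENCODE M21 starts this gene further upstream, at 105811099, so these letters lie inside the gene by that annotation. Mrpl55 (chr11:59202386-59202485, forward strand), a member whose 2 groups did not overlap, has none of the 3.
Mrpl43: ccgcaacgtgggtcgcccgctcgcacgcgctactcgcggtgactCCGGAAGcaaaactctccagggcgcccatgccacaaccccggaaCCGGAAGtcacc
Mrpl52: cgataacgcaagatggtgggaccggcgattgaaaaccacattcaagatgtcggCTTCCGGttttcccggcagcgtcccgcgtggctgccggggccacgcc
Mrps22: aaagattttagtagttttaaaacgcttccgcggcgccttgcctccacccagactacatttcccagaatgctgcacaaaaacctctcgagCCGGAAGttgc
Mrpl17: agccacgcgccgagttactGCGCATGCGtc
Mrpl55: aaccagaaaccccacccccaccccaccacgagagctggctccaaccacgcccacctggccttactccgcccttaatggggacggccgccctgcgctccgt

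The ETS letters were present in 33.8% of the members' windows (25 of 74) and in 8.86% of all 32817 windows of the table. The NRF1 letters were in 9.46% (7 of 74) against 1.75% of all windows, and the YY1 letters in 10.8% (8 of 74) against 1.40%. At least 1 of the 3 was in 47.3% of the members' windows (35 of 74) and in 11.4% of all. Of other letters, the GC box GGGCGG was in 52.7% against 35.6%, the E-box CACGTG in 9.46% against 7.15% and TATAAA in 6.76% against 13.6%, and the ERR letters TCAAGGTCA were in 0 of 74 against 0.424%. The windows of the table were not matched to those of the members in gene type, expression or base composition. The part of these in the differences was not tested. The 35 members with ETS, NRF1 or YY1 letters had a median of 0.10 in log2 fold change (S155A over WT), with 30 above 0. The 33 without them had 0.10, with 26 above 0. Across the 8 mice, the correlation of a member with the mean of all others had a median of 0.57 with these letters and 0.62 without. It was over 0.5 for 21 of 35 and 23 of 33 members. Mrpl46 and Mrps11 lie head to head on chromosome 7, with 41 bases between their RefSeq starts at 78783089 and 78783131. GENCODE M21 starts Mrpl46 at 78783531 and Mrps11 at 78783119, so the 2 genes overlap by that annotation. Their log2 fold changes were 0.23 ± 0.11 and 0.10 ± 0.13 (SE, 4 mice against 4).

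The levels of the members varied little between mice of a genotype, and most of them went up and down together. The median SD of log2 CPM within a group was 0.137 for the members and 0.273 over all genes tested, and 2 members exceeded 0.3. It was also low for cytosolic ribosomal proteins (0.136), mitoribosome subunits with other names (0.148) and complex I subunits (0.159). The members' median level was 29.2 CPM against 10.4 CPM over all genes tested, and the part of level in this spread was not tested. As a description over the 8 mice, the correlation of a member with the mean of all others had a median of 0.60 and was over 0.5 for 51 of 77 members (66.2%), against 13.1% of all genes tested. This was not particular to the members: the correlation with the members' mean was over 0.5 for 94.6% of complex I subunits (median 0.77), 83.3% of the mitoribosome subunits with other names (0.76) and 53.8% of cytosolic ribosomal proteins (0.51). The points share libraries and scaling, and the genotypes are pooled in them. Mrpl53 (r = 0.98), Mrpl55 (0.93) and Mrpl10 (0.92), all of the large subunit, were closest to the rest. Mrpl19, Mrpl9, Mrps23, Mrpl44, Mrps30 and Mrpl3 had a negative r, the lowest being -0.44 for Mrpl19.

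The summed level of the 77 members was higher on average in S155A mice, and the groups overlapped. It was 2472, 2813, 2635 and 2422 CPM in WT replicates 1 to 4 and 2709, 2911, 2751 and 2780 CPM in S155A replicates 1 to 4. WT replicates 1 and 4 were the lowest mice, and WT replicate 2 lay above 3 of the 4 S155A mice. The means were 2586 ± 177 and 2788 ± 87.3 CPM (SD, n = 4). Single members followed the same mice. The lowest value was in a WT mouse for 65 of 77 members (24 in WT replicate 1 and 31 in WT replicate 4). The highest was in an S155A mouse for 56 (27 in S155A replicate 2). These counts were not made over all genes, so there is no background to set them against. Members that move together are also not separate observations. The order of the mice depended on scaling, and S155A replicate 2 had the lowest TMM factor (0.925). As a share of all counts, the members took 0.243%, 0.278%, 0.276% and 0.251% in WT replicates 1 to 4. In S155A replicates 1 to 4 they took 0.285%, 0.269%, 0.262% and 0.283%. By share, S155A replicates 2 and 3 lay below WT replicates 2 and 3. The ratio of the summed large to the summed small subunit was nearly constant. It was 2.40, 2.40, 2.36 and 2.36 in WT and 2.34, 2.38, 2.34 and 2.34 in S155A mice, with means of 2.38 ± 0.0205 and 2.35 ± 0.022 (SD, n = 4) and overlapping groups.

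**Figure D2:**
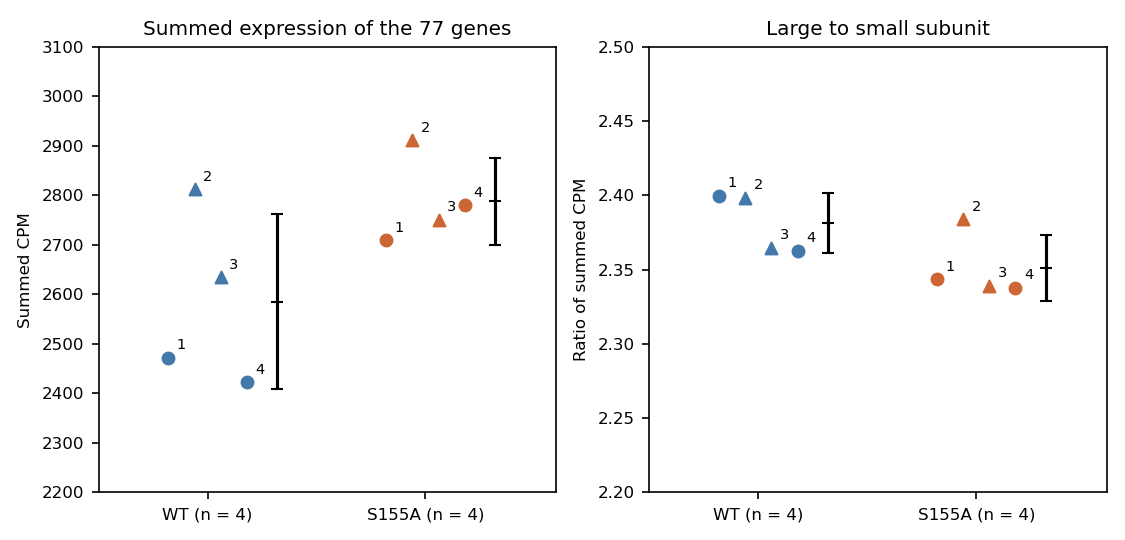
Left, summed CPM of the 77 members in each mouse. Right, the ratio of summed large to summed small subunit CPM. Points are mice, numbered by replicate, circles for animal numbers under 200 and triangles for those over 800, and the bars are means ± SD (n = 4). Both axes start above 0. The S155A mean of 2788 CPM lies above the WT mean of 2586, WT replicate 2 lies among the S155A mice, and the ratio stays between 2.34 and 2.40.

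Comparing S155A with WT mice by edgeR's quasi-likelihood test with Benjamini-Hochberg adjustment over all genes, no member was called at an adjusted p under 0.05 (smallest adjusted p = 0.993), and none of all 14629 genes was (0%). DESeq2 called 6 genes in all and no member. At an unadjusted p under 0.05, 2 of 77 members passed (2.60%), both higher in S155A mice, against 3.4% of all genes, of which 1.42% were higher and 1.98% lower. The groups did not overlap for 2 members, both higher in S155A mice, against 2.3% of all genes (0.943% higher and 1.36% lower). These counts are near the background and are not a result about the members.

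The differences were small and mostly of one sign. The median log2 fold change was 0.11, a 1.08-fold difference, with quartiles of 0.056 and 0.14, and 64 of 77 members (83.1%) were above 0. Over all genes tested the median was -0.0050 and 48.8% were above 0. For 44 members the difference was within its own standard error, for 32 it was above 0 by more than 1 SE and for 1 below 0 by more than 1 SE. Of the 77, 67 had a log2 fold change within 0.2 of 0, and 2 exceeded 0.3. For 72 members the 95% confidence interval lay within a 1.5-fold difference in either direction. The large subunit had a median of 0.11 with 41 of 50 members above 0, and the small subunit 0.10 with 22 of 26. Members with a counterpart in bacteria had a median of 0.10 (43 of 48 above 0), and members found only in mitochondria one of 0.097 (20 of 28). For the 36 members that no other annotated gene overlaps the median was 0.11 (32 of 36 above 0).

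**Figure D3:**
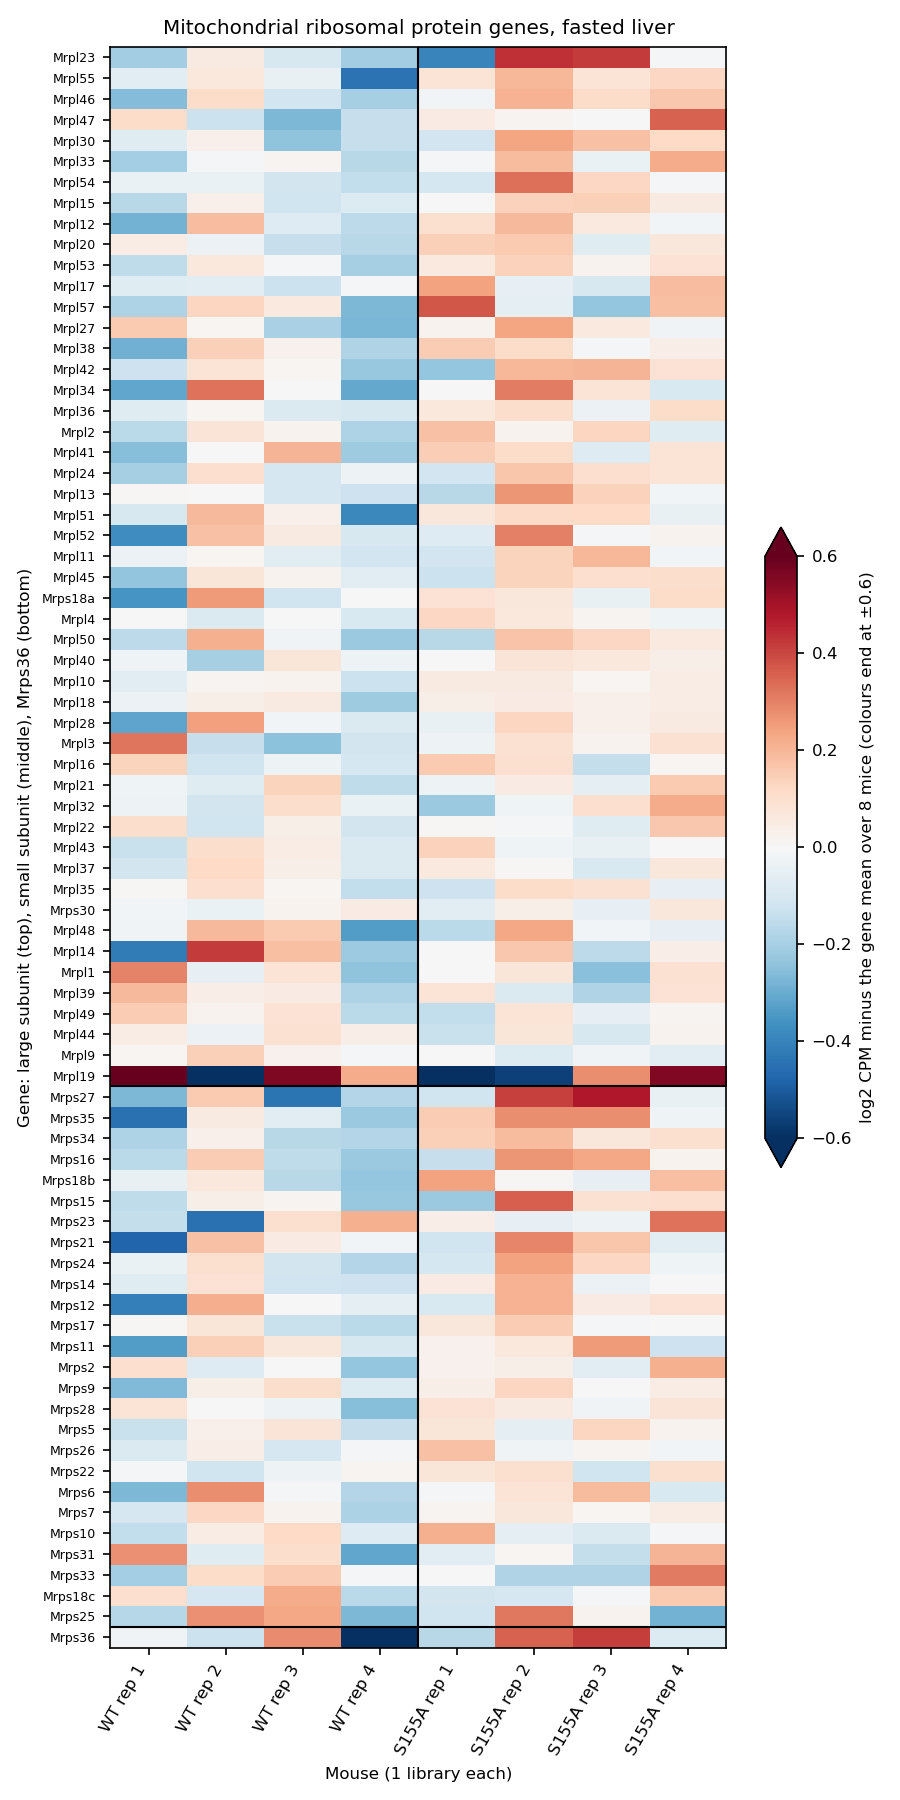
log2 CPM of each member in each mouse, minus the mean of that gene over the 8 mice (colours end at ±0.6). Rows are genes, large subunit above, small subunit below it and Mrps36 last, each ordered by log2 fold change, and columns are mice. WT replicates 1 and 4 are mostly blue, S155A replicate 2 is mostly red, and Mrpl19 runs against the others.

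Mrps34 was the member with the smallest p. It encodes a small-subunit protein found only in mitochondria, and lies on chromosome 17 from 24895116 to 24897502 on the forward strand (GRCm38, GENCODE M21). Its level was 46.2, 53.7, 47.0 and 46.6 CPM in WT and 58.2, 59.95, 55.1 and 56.3 CPM in S155A mice. Every S155A mouse was above every WT mouse, with WT replicate 2 nearest to them. The log2 fold change was 0.25 ± 0.089 (SE), with an edgeR p of 0.020 before and 0.993 after adjustment, and a p of 0.0286 in the exact permutation test (two-sided), the smallest that 4 mice against 4 allow. The annotated gene overlaps Nme3 on the same strand and Mapk8ip3 on the opposite one, and reads in shared stretches were divided by salmon's model. The 8 members on chromosome 17, which also carries Plin5, had a median of 0.085 in log2 fold change (-0.012 to 0.25), and the other 69 had 0.11.

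Mrps35, also a small-subunit protein found only in mitochondria, was the other member with an unadjusted p under 0.05. Its level was 20.03, 28.4, 26.1 and 23.4 CPM in WT and 30.4, 33.1, 33.2 and 26.8 CPM in S155A mice. Only S155A replicate 4 lay within the WT range. The log2 fold change was 0.33 ± 0.13 (SE), with an edgeR p of 0.026 before and 0.993 after adjustment and an exact permutation p of 0.0571. Mrpl55, of the large subunit, had 18.8, 20.5, 19.1 and 14.5 CPM in WT and 20.8, 22.6, 20.8 and 21.4 CPM in S155A mice. The groups did not overlap, but WT replicate 2 and S155A replicate 3 were 20.5 and 20.8 CPM, and WT replicate 4 was lowest. The log2 fold change was 0.23 ± 0.12 (SE), with an unadjusted edgeR p of 0.080 and an exact permutation p of 0.0286. As for Mrps34, groups of 4 that do not overlap always give this permutation p, so it only repeats the lack of overlap. With WT replicate 4 left out, Mrpl55 stood at 0.14 in log2 fold change.

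The highest log2 fold change was that of Mrps27, a small-subunit protein found only in mitochondria, with 0.37 ± 0.17 (SE). Its level was 21.4, 28.9, 19.1 and 22.9 CPM in WT and 23.8, 34.4, 36.1 and 25.1 CPM in S155A mice. S155A replicates 2 and 3 were high, and the other S155A mice lay within the WT range. Mrpl23, of the large subunit, had the same 2 mice high, with 22.4, 26.9, 24.2 and 22.4 CPM in WT and 19.6, 35.1, 34.6 and 25.7 CPM in S155A mice and a log2 fold change of 0.26 ± 0.18 (SE). That value was 0.16 without S155A replicate 2 or 3 and 0.41 without S155A replicate 1. Mrps36, of the oxoglutarate dehydrogenase complex, had 6.53 ± 1.68 CPM in WT and 7.74 ± 1.57 CPM in S155A mice (SD, n = 4), the lowest CPM of all members, and a log2 fold change of 0.25 ± 0.22 (SE). It was 0.097 without WT replicate 4, 0.15 without S155A replicate 3 and 0.40 without WT replicate 3. None of these 3 had an unadjusted p under 0.05.

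At the other end, Mrpl19 had a log2 fold change of -0.24 ± 0.38 (SE), with the widest spread of all members. Its level was 20.6, 5.94, 18.8 and 14.9 CPM in WT and 8.18, 8.64, 15.5 and 18.7 CPM in S155A mice. WT replicate 2 and S155A replicates 1 and 2 were low, and the groups overlapped over nearly their whole range. Leaving out 1 mouse moved the log2 fold change between -0.049 (without WT replicate 1) and -0.50 (without WT replicate 2). Mrpl9, also of the large subunit, had 41.4, 45.4, 41.8 and 40.9 CPM in WT and 40.9, 38.8, 40.4 and 39.3 CPM in S155A mice, with a log2 fold change of -0.087 ± 0.083 (SE) and an exact permutation p of 0.0571. Mrpl44 (-0.067), Mrpl49 (-0.052) and Mrpl39 (-0.052) completed the 5 lowest log2 fold changes, each within its SE.

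Members with well-known places in the ribosome showed the same small differences. In the stalk and its base, Mrpl12 had 155.1, 214, 179 and 169 CPM in WT and 202, 216, 196 and 187 CPM in S155A mice, with WT replicate 2 among the highest. Its log2 fold change was 0.16 ± 0.12 (SE), beside 0.078 for Mrpl10, which anchors the stalk, and 0.11 for Mrpl11 at its base. Among counterparts of core bacterial proteins of the large subunit, Mrpl2 (0.12), Mrpl3 (0.071) and Mrpl4 (0.089) had unadjusted p-values between 0.252 and 0.606. In the small subunit, the log2 fold change was 0.11 for Mrps12, the counterpart of the protein of the decoding centre, 0.081 for Mrps5, 0.067 for Mrps7 and 0.18 for Mrps15. Of proteins found only in mitochondria, Mrps22 had 0.075, Mrpl45, which lies near the tunnel exit, had 0.11 and Mrpl37 had 0.019. The 3 paralogs that descend from bacterial S18 had 0.19 (Mrps18b, small subunit), 0.095 (Mrps18a, large subunit) and -0.034 (Mrps18c, small subunit), and Mrps30, of the large subunit, had -0.0051. The 5 genes of highest level per length all had values above 0, with Mrpl30 at 0.21, Mrpl20 and Mrpl17 at 0.15 and Mrpl52 at 0.11.

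The animal numbers in the labels fall in 2 ranges, under 200 for replicates 1 and 4 and over 800 for replicates 2 and 3 of either genotype. The labels do not say what the ranges stand for. Within the low range the median difference in log2 CPM (S155A minus WT) of the members was 0.15, with 69 of 77 above 0 and mean sums of 2447 CPM in WT and 2745 CPM in S155A mice. Within the high range it was 0.041, with 52 above 0 and mean sums of 2724 and 2831 CPM. The high-range median was -0.073, with 25 members above 0, when libraries were scaled by size alone, and the median of all genes was then -0.12 in that range. Relative to the median of all genes, the members stood 0.050 higher in the high range and 0.155 higher in the low range with TMM, and 0.049 and 0.155 higher with library size alone.

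Of the 77 members, 47 were higher in S155A mice in both ranges, 3 were lower in both, 22 were higher in the low range and lower in the high range, and 5 the reverse. The test of the interaction between genotype and range called no member and no gene at an adjusted p under 0.05 (0%, edgeR). DESeq2 called 285 of the 14629 genes tested, none of them a member. At so small a share few calls would fall among 77 genes, so this is not a result about the members. At an unadjusted p under 0.05, 3 of 77 members passed against 11.1% of all genes. These were Mrpl57 and Mrpl14 of the large subunit, with an unadjusted edgeR p of 0.0047 and 0.018, and Mrps33 of the small subunit, with 0.020. Mrpl57 had 17.9 and 16.96 CPM in WT and 26.5 and 23.2 CPM in S155A mice of the low range, and 22.3 and 21.3 CPM in WT and 19.6 and 17.4 CPM in S155A mice of the high range. Its groups were apart in both ranges, in opposite directions.

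**Figure D4:**
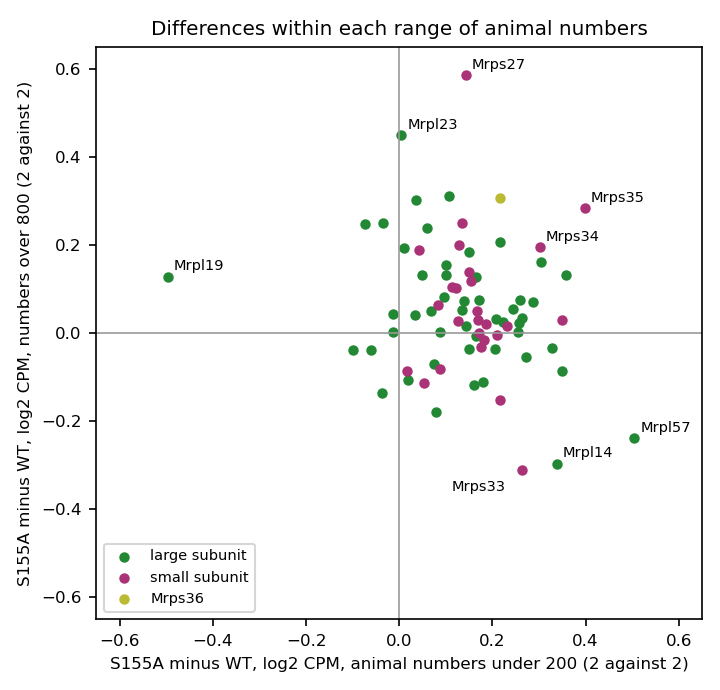
Difference in log2 CPM (S155A minus WT) of each member among animal numbers under 200 (horizontal) and over 800 (vertical), each 2 mice against 2. Points are genes, coloured by subunit. Of the 77, 47 lie in the upper right quadrant, and Mrpl57, Mrpl14 and Mrps33 lie furthest towards the lower right.

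How many members passed the unadjusted threshold depended on single mice. Leaving out 1 mouse at a time gave 8 members without WT replicate 2 (4.61% of all genes passed), 6 without S155A replicate 1 (6.02%), 3 without S155A replicate 4 (4.2%) and 2 without WT replicate 1 (4.49%). It gave 1 without WT replicate 3 (2.4%), S155A replicate 2 (2.49%) or S155A replicate 3 (2.43%), and 0 without WT replicate 4 (3.08%). All of them were higher in S155A mice, and no member was called after adjustment in any of these fits. With WT replicate 2 and S155A replicate 3 left out together, an alternative chosen after seeing the data, the median log2 fold change was 0.14, with 68 of 77 members above 0 and 5 at an unadjusted p under 0.05 (3.20% of all genes).

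Other genes of mitochondrial translation were read from lists of their own. For the 6 subunits of the mitoribosome that carry other names the log2 fold change had a median of 0.17, and 6 of 6 were above 0. Chchd1, a small-subunit protein, had the highest, with 0.26 ± 0.11 (SE), an unadjusted edgeR p of 0.033 and no overlap between the groups. The 16 rows of 15 translation factors (Mtif3 is listed under 2 identifiers) had a median of 0.0028, with 8 above 0. One, Mtrf1l, a release factor, had an unadjusted p of 0.0086, with a log2 fold change of 0.78 ± 0.24 (SE) and overlapping groups. The 20 mitochondrial aminoacyl-tRNA synthetases and amidotransferase subunits, which charge tRNAs, had a median of 0.0029 with 10 above 0, and Pars2 passed the unadjusted threshold with a log2 fold change of 0.42 ± 0.16 (SE) and an edgeR p of 0.030. Neither of these lists nor those below had a gene at an adjusted p under 0.05.

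For the 25 tested of 28 assembly and rRNA modification factors the median was 0.071, and 16 were above 0. Mettl15, an rRNA methyltransferase, passed the unadjusted threshold with an edgeR p of 0.048, at -0.50 ± 0.22 (SE) and with no overlap. The 10 genes of mitochondrial transcription and RNA processing had a median of 0.043, with 5 above 0. The 10 transcription factors and coactivators known for nuclear genes of mitochondria had a median of 0.047, with 5 above 0 and none at an unadjusted p under 0.05. Of the factors whose letters were searched above, Nrf1 had a log2 fold change of -0.17, Gabpa -0.14, Gabpb1 -0.086, Yy1 -0.28, Esrra 0.19, Esrrg -0.52 and Myc, which binds E-boxes, 0.25. Outside mitochondrial translation, the 37 complex I subunits had a median of 0.12 with 36 above 0 and none at an unadjusted p under 0.05. The 78 cytosolic ribosomal proteins tested had 0.17 with 75 above 0. Of the 78, 5 had an unadjusted edgeR p under 0.05 (6.41%), against 3.4% of all genes, of which 1.42% were higher. For 11 of the 78 the groups did not overlap, against 2.3% of all genes (0.943% higher). These 5 and 11 were all higher in S155A mice. Both lists were read in the same 8 libraries as the members.

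**Figure D5:**
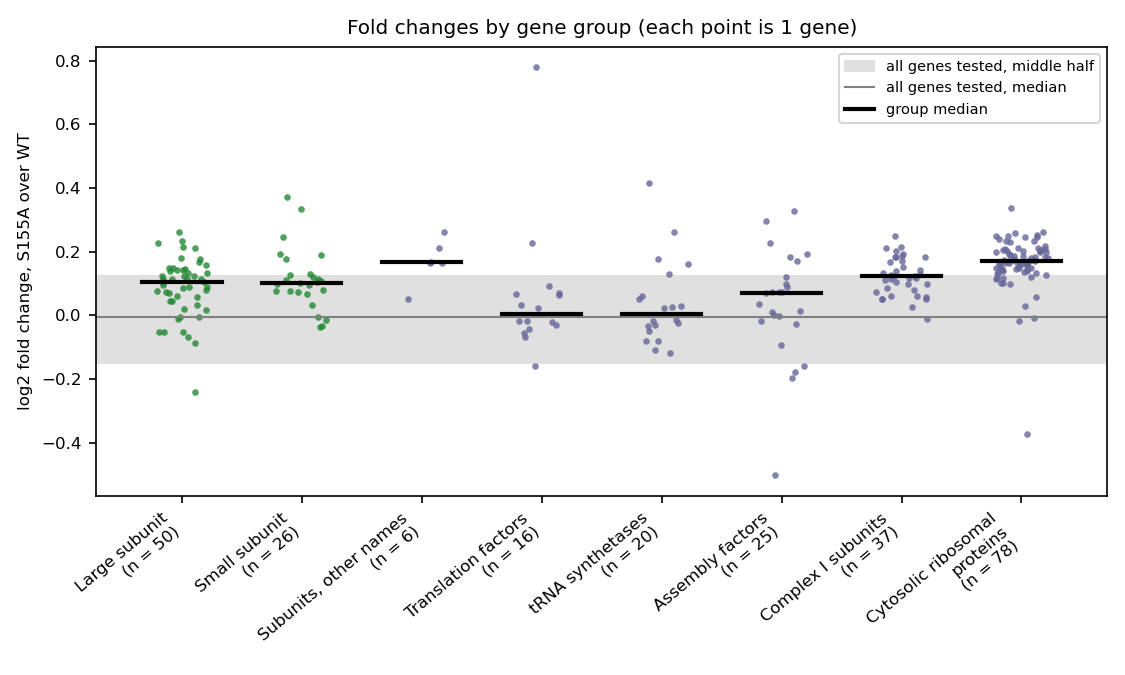
log2 fold change (S155A over WT, 4 mice each) of each gene, by gene group. Each point is 1 gene, black bars are group medians, and the grey band holds the middle part of all genes tested, from the lower to the upper quartile, around their median. The medians of both subunits (0.11 and 0.10) lie above that of all genes, those of translation factors and tRNA synthetases lie near 0, and that of cytosolic ribosomal proteins is 0.17.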

How the data were processed

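For 8 libraries the authors deposited salmon's estimated counts, summed per gene and scaled for average transcript length but not for library size. The submitters' processing notes name bcl2fastq, STAR, SAMtools, MultiQC, DESeq2 and build GRCm38 without versions. The salmon version, the annotation release and the use of strand are not given in the sources used here. Such scaling can alter counts of genes whose isoform use varies between mice.

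Estimated counts were rounded, filtered with filterByExpr and tested with edgeR 4.0.16 (R 4.3.3) after TMM normalization, all 8 mice, no block, with adjustment over all 14629 genes tested. Log2 CPM used a prior count of 2. A total of 39709785 to 54540864 counts per library left at least 223 counts for each member. Alternatives used DESeq2 1.42.0, limma-voom (limma 3.58.1), other scalings and filters, a robust fit, blocks for replicate number and animal number range, and left out each mouse. The scripts were tested on simulated data with 50 genes changed at each size, drawn at random from all genes and not matched to the members. At an adjusted p under 0.05, edgeR called 0 of 50 at 1.25-fold, 5 at 1.5-fold and 25 at 2-fold. The replicate numbers were not taken to pair the mice, since same-numbered mice did not all deviate together over all genes. Each pair of libraries differed by at least 41.7 in chi-square per gene, so none were copies.

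Members and lists were chosen with earlier results of these data known. Members were named by p, lack of overlap, the 5 highest and 5 lowest fold changes, the 5 highest and 3 lowest levels per length, and ribosomal role, and genes of other lists by unadjusted p under 0.05. Other named genes, such as those on the interaction and on regulators, were chosen after their values were seen. Positions are from GENCODE M21 (77 of 77 members matched) and promoters from RefSeq. The rows of 5 Mrp pseudogenes were left out.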

Additional observations from a re-analysis of the deposited data

Results flagged for a closer look

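In 5 of 156 groups of 4 mice (77 members and the sum, in each genotype), 1 mouse stood apart from the other 3, by a gap to the nearest that exceeded Dixon's critical value for 4 samples. Chance alone gives about 8 of 156. Mrps34 had 53.7 CPM in WT replicate 2 and at most 47.0 CPM in the other WT mice, and Mrps16, also of the small subunit, had 35.2 CPM in WT replicate 2 and at most 28.6 CPM in the others. Mrpl45 had 27.8 CPM in S155A replicate 1 and 32.6 to 33.3 CPM in the other S155A mice. Mrpl47 had 17.7 CPM in S155A replicate 4 and at most 14.3 CPM in the others. Mrps22 had 10.2 CPM in S155A replicate 3 and 11.7 to 11.9 CPM in the others.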

How the results depend on the processing

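No member was called at an adjusted p under 0.05 with any of 19 alternatives, the smallest adjusted p of a member being 0.798, without S155A replicate 1. Over all genes the count was 0 except with DESeq2, which called 6. The median log2 fold change of the members was 0.064 with library size alone, when that of all genes was -0.042, and 0.081 to 0.15 when 1 mouse was left out, and 61 to 71 members were above 0. Library size alone turned the high-range median to -0.073. Across 34 named members and 19 alternatives, 629 of 646 log2 fold changes kept their sign, while their size could change with 1 mouse. Mice that share a replicate number did not all deviate together (r = 0.056, 0.17, -0.11 and 0.13 over all genes, and -0.12, 0.61, 0.12 and 0.31 over the members). With the replicate block, 0 members were called, 4 had an unadjusted p under 0.05 (3.96% of all genes) and the median was 0.11. A block for the animal number range also gave 4 (4.24%), and no filter gave 3 (3.79%). Every member had at least 223 counts in each library, and 4 mice a group set the precision: log2 fold changes had a median SE of 0.11, as large as their median.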

Other observations

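The 2 rRNAs of the mitoribosome, encoded in mitochondrial DNA and read here in poly(A)-selected libraries, were looked at after their values were seen. mt-Rnr1, of the small subunit, had 120, 252, 196 and 122 CPM in WT and 125, 145, 154 and 125 CPM in S155A mice. mt-Rnr2, of the large subunit, had 145, 355, 230 and 174 CPM in WT and 191, 159, 183 and 167 CPM in S155A mice. WT replicate 2 was highest for both, and the groups overlapped, with an exact permutation p of 0.429 for each. The log2 fold change was -0.33 ± 0.23 for mt-Rnr1 and -0.37 ± 0.24 for mt-Rnr2 (SE). The difference in log2 CPM was 0.046 and 0.17 in the low range of animal numbers and -0.57 and -0.74 in the high range. The edgeR interaction p was 0.012 for each before adjustment and 0.321 after.

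Among the pseudogene rows, Mrpl23-ps1 held between 49 and 106 counts per library and Mrpl48-ps between 3 and 10.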
